A study of Homo sapiens with 24 samples.

Results

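The genes described here are intergenic long noncoding RNA genes, for which the GENCODE annotation, release 29, uses the type lincRNA: transcription units that encode no known protein and are annotated as intergenic, although the span of 203 members (18.6%) overlaps that of a protein-coding gene. They were chosen as all genes of that type with 10 or more reads in at least 3 of the 24 libraries, and the small nucleolar RNA hosts with symbols beginning SNHG were left out. By this rule 1091 of the 58381 genes in the count table were members. Of the 7417 lincRNA genes in the table, 2965 had no read in any library, and 6317 in all fell below the count rule. Among the members, 614 (56.3%) carry only a clone name such as AC006058.1 and 267 a LINC symbol.

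The libraries come from 4 established human lines of bladder cancer grown in culture: CLS-439, TCC-SUP, 5637 and T24. Cells of each line were either left untreated or exposed to 75 µM mitomycin C (MMC), a drug that crosslinks DNA and is instilled into the bladder to treat superficial tumours, for 1 h, and total RNA was isolated 15 h later for libraries of polyadenylated RNA. Each of the 8 groups holds 3 biological replicates, labelled 1, 3 and 4, and p-values measure the spread between them. The comparison asks how the RNA of each line differed after the drug, and the untreated groups allow the lines to be set side by side.

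Long intergenic noncoding RNAs are transcribed by RNA polymerase II, and most are spliced and polyadenylated like messenger RNA. They are usually scarcer than messenger RNA and more often restricted to particular cell types. Some act in the nucleus as scaffolds, such as NEAT1, which builds paraspeckles, others bind proteins in the cytoplasm, such as NORAD, which binds Pumilio proteins, and some carry microRNAs in their transcripts. Many begin close to the start of a protein-coding gene on the opposite strand and share its promoter region, an arrangement called divergent. MMC crosslinks block the passage of polymerases, and several lincRNA genes, MIR34AHG among them, are known targets of the p53 tumour suppressor.

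The start regions of 3 members are shown here because the start regions of members that rose and of members that fell differed in median CG content, as given further on. They were read from RefSeq's GRCh38.p14 promoter table as 250 bases before to 50 bases after the annotated start, on the gene's strand, with each CG dinucleotide in capitals. RALY-AS1 (chr20:33994318-33994617, minus strand) and LINC02321 (chr14:90828125-90828424, minus strand) were higher after MMC, and LINC01411 (chr5:174336104-174336403, plus strand) was lower. They were chosen after their values were seen.
RALY-AS1: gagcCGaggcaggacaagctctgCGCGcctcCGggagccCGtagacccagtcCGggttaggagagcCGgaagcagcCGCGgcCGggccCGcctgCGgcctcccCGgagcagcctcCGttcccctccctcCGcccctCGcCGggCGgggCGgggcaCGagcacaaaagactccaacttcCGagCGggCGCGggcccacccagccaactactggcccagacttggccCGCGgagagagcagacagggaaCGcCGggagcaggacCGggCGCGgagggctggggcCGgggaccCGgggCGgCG
LINC02321: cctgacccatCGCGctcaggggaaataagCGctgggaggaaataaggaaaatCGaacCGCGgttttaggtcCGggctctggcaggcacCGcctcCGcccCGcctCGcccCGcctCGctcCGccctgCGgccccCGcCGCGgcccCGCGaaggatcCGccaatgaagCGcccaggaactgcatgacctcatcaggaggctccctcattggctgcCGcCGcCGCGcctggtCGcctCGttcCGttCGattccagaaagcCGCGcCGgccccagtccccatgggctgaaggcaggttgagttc
LINC01411: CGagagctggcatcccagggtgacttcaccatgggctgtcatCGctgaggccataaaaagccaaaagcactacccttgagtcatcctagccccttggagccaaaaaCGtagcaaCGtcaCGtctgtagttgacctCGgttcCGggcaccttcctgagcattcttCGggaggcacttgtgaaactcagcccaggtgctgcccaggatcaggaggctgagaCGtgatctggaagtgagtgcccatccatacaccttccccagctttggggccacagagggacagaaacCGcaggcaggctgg
The counts of CG dinucleotides are 35, 33 and 10, against a median of 14 over all 35116 promoters of the table. The LINC01411 window holds the AP-1 motif TGANTCA as TGAGTCA, beginning 174 bases before the start, and the other 2 windows do not hold these letters on either strand. Windows were also read for other members called in the same direction in 3 lines. LINC01569, LINC01679, AC068594.1 and LINC00857, which rose, held 39, 24, 21 and 18 CG dinucleotides, and LINC02057, which fell, held 2. Others went against the medians. LINC01176 and MIR194-2HG, which rose, held 1 and 11, and FTX and LINC01106, which fell, held 16 and 24.

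All 21 members with a symbol of the form MIR...HG contain mature microRNAs of RefSeq on their own strand, 62 in all. Those of hosts that the results turn on are printed with the seed, bases 2 to 8, in capitals, because the host transcript is what was counted here and the mature microRNA was not measured. They are the product of the p53 target MIR34AHG, that of MIR210HG, the pair in MIR193BHG, the pair in MIR222HG and that of MIR503HG.
miR-34a-5p: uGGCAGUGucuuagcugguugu
miR-210-3p: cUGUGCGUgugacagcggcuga
miR-193b-3p: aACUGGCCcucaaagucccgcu
miR-365a-3p: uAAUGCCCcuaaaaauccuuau
miR-221-3p: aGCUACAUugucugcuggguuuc
miR-222-3p: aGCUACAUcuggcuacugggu
miR-503-5p: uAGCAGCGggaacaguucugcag
The microRNAs miR-221-3p and miR-222-3p share the seed GCUACAU, and the other 5 have seeds of their own.

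The libraries held 13791428 to 28821665 reads counted in genes (median 21966962), and members took 0.185 to 0.388% of them. CLS-439 stood apart: mitochondrially encoded genes held 0.0238 to 0.0283% of its reads against 3.21 to 7.40% in the other lines, processed pseudogenes 2.75 to 3.05% against 0.143 to 0.228%, and members 0.185 to 0.222%. Of 11 urothelial and epithelial markers, 7 to 10 reached 1 CPM (the read count scaled to a common library size with TMM factors) in each group. The summed CPM of 4 mesenchymal markers in untreated cells was 7064 to 9487 in TCC-SUP, 2844 to 3390 in CLS-439, 698 to 755 in 5637 and 77.9 to 87.3 in T24. Most of the TCC-SUP sum came from COL1A1 and COL1A2, with untreated means of 4298 and 4120 CPM. VIM went the other way, with untreated means of 10.2 CPM in TCC-SUP, 1451 in CLS-439, 701 in 5637 and 81.0 in T24. The epithelial keratin KRT8 had untreated means of 153 CPM or more in every line, and KRT7, KRT18, EPCAM, GATA3 and PPARG were above 1 CPM in each. The other listed epithelial markers, KRT5, KRT19, CDH1, TP63 and UPK2, had untreated means under 1 CPM in at least 1 line. CDH1 was at 0.0129 CPM in T24 and 174 in 5637, and UPK2 was at 0.293 CPM or less in every line. Of 3 leukocyte markers none reached 1 CPM in T24, 5637 or CLS-439, and in TCC-SUP 1 did, with summed levels of 28.7 to 31.2 CPM untreated and 9.16 to 13.6 CPM treated. The part of these differences in any result below was not tested. In RNA from whole cultures, fewer cells with a transcript and less of it per cell cannot be told apart.

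Members were scarce. The median over members of the mean CPM of all libraries was 0.563, and per kb of exonic length it was 0.417, against 4.90 CPM per kb for the 14760 protein-coding genes that met the same count rule. Their genes were short, with a median span of 5478 bp and 1755 exonic bases, where the coding genes had 32580 bp and 5000 bases. Only 89 members (8.16%) had 10 or more reads in every library, as did 10319 coding genes (69.9%). At the edge of the rule, the 87 members that reached 10 reads in exactly 3 libraries had mean CPM of 0.0871 to 0.279, and the 94 lincRNA genes just outside, with exactly 2 such libraries, 0.0665 to 0.275.

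By position, 276 members began within 5 kb of a protein-coding start on the opposite strand (divergent), 148 lay within 10 kb downstream of a coding gene on its strand, 283 lay elsewhere within 50 kb of a coding start and 384 lay further away. Exonic bases of 303 members overlap those of another gene, where reads are uncertain, since the strand setting used in counting is not given in the sources used here.

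The responses were tested with edgeR's quasi-likelihood test over all 20820 genes that passed its count filter, 1060 of them members, in 1 fit of all 24 libraries. A member is called higher or lower, or said to have risen or fallen, where the Benjamini-Hochberg adjusted p was under 0.05. The rule that chose members used these same counts, so a scarce member that qualified through its treated libraries had to be higher in them. The counts of calls are therefore a description, and the same counts follow for members chosen on untreated libraries alone.

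In T24, 150 members were higher after MMC and 53 lower, 14.2% and 5.00% of those tested, beside 15.2% and 13.4% of all genes. In 5637, 199 were higher and 63 lower, 18.8% and 5.94%, beside 15.9% and 13.6% of all genes. TCC-SUP had 76 higher and 79 lower, 7.17% and 7.45%, beside 9.57% and 11.1% of all genes. CLS-439 had 1 member higher and 1 lower, beside 0.298% and 0.322% of all genes, and 40 members had an unadjusted p under 0.05 there. Over all levels, the share of members that rose in T24 and 5637 was near that of all genes, and the share that fell was under it. Level matters here, since members are scarcer than most genes tested. Of the 565 members with a mean of 0.2 to 1 CPM, 14.2% rose and 2.83% fell in T24, beside 9.09% and 3.72% of all genes at that level. In 5637 these shares were 18.2% and 4.42% beside 11.9% and 5.10%, and in TCC-SUP 7.08% and 5.49% beside 5.55% and 4.45%. Coding genes at that level rose at 11.0%, 13.9% and 7.79% in T24, 5637 and TCC-SUP. Of the 330 members at 1 to 10 CPM, 17.3%, 24.2% and 8.79% rose in these lines. All genes at 1 to 10 CPM rose at 16.1%, 19.1% and 8.87%. Falls there were 8.79%, 7.88% and 7.58% of members and 10.1%, 11.1% and 10.4% of all genes. The plot of the shares over all levels sets them beside protein-coding genes.

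**Figure D1:**
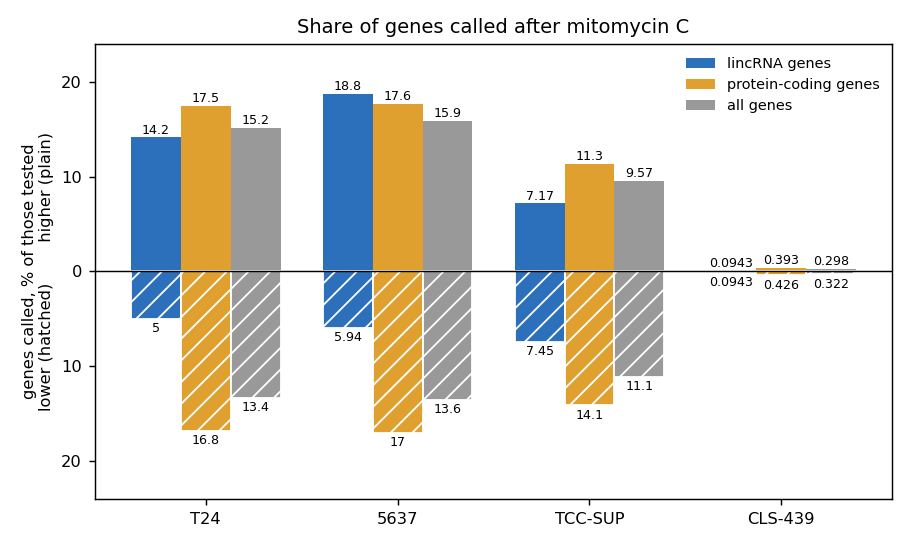
Percent of tested genes called higher (plain bars, upward) or lower (hatched bars, downward) after mitomycin C in each line, for lincRNA members, protein-coding genes and all genes tested. In T24 and 5637 members were called higher at 14.2% and 18.8% and lower at 5.00% and 5.94%, while CLS-439 shows almost no calls in any class.

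Among members chosen on untreated libraries alone, 886 were tested. In T24, 113 were higher and 53 lower (12.8% and 5.98%), in 5637 147 and 63 (16.6% and 7.11%), and in TCC-SUP 53 and 79 (5.98% and 8.92%). With members chosen on treated libraries alone, TCC-SUP had 76 higher and 54 lower. The order of rises and falls in TCC-SUP thus followed the choice of libraries, while in T24 and 5637 more members rose than fell under both choices.

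Single libraries moved several of these counts by more than 1.5 times. Without untreated replicate 4 of T24, 97 members were higher there, and without its treated replicate 4, 35 were lower. Without treated replicate 3 of 5637, 129 were higher in that line. In TCC-SUP the higher count fell to between 37 and 50 without untreated replicate 1, 3 or 4 or treated replicate 3 or 4, and the lower count to 44, 34 and 45 without untreated replicate 1, treated replicate 3 or treated replicate 4. Of the 42 members with a mean of 10 CPM or more, 4 rose and 7 fell in T24 (9.52% and 16.7%), 3 and 9 in 5637 (7.14% and 21.4%), and 1 and 13 in TCC-SUP (2.38% and 31%). All genes at that level also fell in larger number than they rose, at 18.4% higher and 20.4% lower in T24, 17% and 19.5% in 5637, and 12.4% and 15.1% in TCC-SUP.

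Several divergent members rose in all of T24, 5637 and TCC-SUP. RALY-AS1 (ENSG00000285230, chromosome 20, 33980687 to 33994357 on the minus strand of GRCh38, 4 exons) begins 711 bp from RALY, which encodes an RNA-binding protein, and like the next 2 genes it was chosen after its values were seen. Untreated T24 libraries held 4.73, 3.98 and 2.91 CPM in replicates 1, 3 and 4, and treated ones 10.2, 16.5 and 16.3. In 5637 the values were 4.22, 4.68 and 3.31 CPM untreated and 9.73, 18.5 and 16.5 treated. In TCC-SUP they were 3.97, 3.01 and 3.71 CPM against 7.10, 9.03 and 8.57. Every treated library of these lines lay above every untreated one. The log2 differences were 1.89 (SE 0.24, edgeR adjusted p = 3.87e-06), 1.87 (SE 0.25, 4.23e-06) and 1.21 (SE 0.25, 0.00127). In CLS-439 the untreated libraries held 2.67, 2.26 and 2.01 CPM and the treated ones 2.87, 2.44 and 2.94, which overlap, with a log2 difference of 0.24 (SE 0.27, edgeR adjusted p = 0.946). The response of CLS-439 was smaller than that of T24 by 1.65 (SE 0.36, edgeR adjusted p = 0.0048). RALY itself, the coding neighbour, was not called in any of the 4 lines, with log2 differences from -0.24 to 0.24.

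GAS6-DT (ENSG00000272695, chromosome 13, 113864168 to 113866833, plus strand, 2 exons) begins 101 bp from GAS6, which encodes a ligand of the TAM receptor kinases. The lncRNA held 4.46, 5.26 and 4.98 CPM in untreated T24 and 9.09, 9.60 and 8.13 in treated T24, a log2 difference of 0.87 (SE 0.18, edgeR adjusted p = 0.00076). In 5637 it went from 2.24, 1.45 and 2.21 CPM to 5.76, 5.63 and 5.36 (1.5, SE 0.20, edgeR adjusted p = 4.12e-06), and in TCC-SUP from 17.7, 14.3 and 16.4 CPM to 32.0, 26.6 and 30.8 (0.89, SE 0.17, edgeR adjusted p = 0.000794). The groups did not overlap in these 3 lines. Its coding neighbour moved the other way: GAS6 fell in T24 by 0.92 (SE 0.27, edgeR adjusted p = 0.0112), in 5637 by 0.83 (SE 0.27, 0.0215) and in TCC-SUP by 0.87 (SE 0.26, 0.0221).

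AC044802.1 (chromosome 16, 66751752 to 66754740, plus strand) begins 46 bp from DYNC1LI2, which encodes a dynein light intermediate chain. It rose in T24 from 0.448 ± 0.151 to 1.16 ± 0.146 CPM (mean ± SD, n = 3 each), in 5637 from 0.079 ± 0.051 to 0.413 ± 0.137 and in TCC-SUP from 0.360 ± 0.102 to 1.26 ± 0.186. The log2 differences were 1.35 (SE 0.32), 2.29 (SE 0.52) and 1.79 (SE 0.33), with edgeR adjusted p of 0.00233, 0.00157 and 0.000561, and the groups did not overlap. CLS-439 held the most of it, 6.09 ± 0.974 CPM untreated and 8.41 ± 1.67 treated, and was not called (log2 0.47, SE 0.23, edgeR adjusted p = 0.654). DYNC1LI2 was not called in any line.

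AC007114.1 (chromosome 17, 57078298 to 57085024, minus strand), divergent from AKAP1, which encodes a kinase anchor of the mitochondrial outer membrane, was among the rises named by size. In T24 it went from 0.194, 0.228 and 0.264 CPM to 1.03, 1.501 and 1.45, and in 5637 from 0.356, 0.435 and 0.552 CPM to 0.796, 2.82 and 1.16, with no overlap of libraries in either line. It rose by 2.51 (SE 0.44, edgeR adjusted p = 0.000153) in T24 and by 1.82 (SE 0.40, 0.00129) in 5637, while AKAP1 fell by 0.45 (SE 0.12, 0.00641) and 0.42 (SE 0.12, 0.00897).

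The divergent members were counted as a class, since position played no part in choosing them. Of the 267 tested, 54 rose and 5 fell in T24 (20.2% and 1.87%), 82 rose and 4 fell in 5637 (30.7% and 1.5%), and 21 rose and 11 fell in TCC-SUP (7.87% and 4.12%); none was called in CLS-439. The shares of all genes given above were 15.2% and 13.4%, 15.9% and 13.6%, and 9.57% and 11.1%. Beside them, divergent members were called higher in larger share in T24 and 5637 and in smaller share in TCC-SUP. They were called lower in smaller share in all 3. Divergent members are scarce, however, with a median of 0.636 for the mean CPM. All genes with a mean of 0.2 to 1 CPM were higher at 9.09%, 11.9% and 5.55% in T24, 5637 and TCC-SUP, and lower at 3.72%, 5.10% and 4.45%. Beside these, the divergent share of rises was larger in all 3 lines, and the share of falls in TCC-SUP was near. Coding genes at that level were higher at 11.0%, 13.9% and 7.79%, so in TCC-SUP the divergent share of rises was near theirs. The median log2 differences of divergent members were 0.42, 0.57, 0.22 and 0.04. Of the 374 members lying further from coding genes, 37 rose and 23 fell in T24, 46 and 28 in 5637, and 17 and 51 in TCC-SUP, with medians of 0, 0 and -0.28. The 142 downstream members had 16 rises and 19 falls in T24, 16 and 17 in 5637, and 15 and 5 in TCC-SUP. The remaining 277 near genes had 43 and 6, 55 and 14, and 23 and 12. Rises were thus 11.3%, 11.3% and 10.6% of downstream members and 15.5%, 19.9% and 8.30% of the remaining near ones. In TCC-SUP both shares were above the 7.87% of divergent members. Over all genes tested, the median was 0 in every line.

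Members chosen on untreated libraries alone gave like shares, with 46 of 225 divergent members higher in T24 (20.4%), 65 in 5637 (28.9%) and 15 in TCC-SUP (6.67%). The contrast was also present among members spanning under 5 kb. Of these, 34 of 154 divergent ones rose in T24 (22.1%) and 60 in 5637 (39.0%), against 15 (13.6%) and 19 (17.3%) of 110 distant ones. From 5 to 20 kb, 24.6% of divergent and 11.2% of distant members rose in T24, and 27.9% and 12.2% in 5637. From 20 to 100 kb the contrast did not hold in 5637 or TCC-SUP. In that range, 3 of 34 divergent members (8.82%) and 13 of 96 distant ones (13.5%) rose in 5637. In TCC-SUP 0 and 4 rose, and in T24 the shares were 11.8% and 9.38%. Without treated replicate 3 of T24 the divergent count was 33 there, and without its untreated replicate 4 it was 30. It was 47 in 5637 without treated replicate 3, and 11 in TCC-SUP without untreated replicate 1, untreated replicate 4 or treated replicate 3. The median shift of divergent members from the untreated mean, taken on log2(CPM + 0.1) over members with a mean of 0.2 CPM or more, was 0.27, 0.40 and 0.37 in the treated T24 libraries, 0.23, 0.85 and 0.64 in those of 5637, and 0.18, 0.24 and 0.17 in those of TCC-SUP. All 9 were above 0, and replicate 1 was the lowest in T24 and 5637. Members elsewhere within 50 kb were also above 0 in all 9. Their shifts were 0.47, 0.37 and 0.28 in T24, 0.23, 0.47 and 0.53 in 5637, and 0.10, 0.06 and 0.04 in TCC-SUP. Downstream members lay on both sides of 0 in each of these lines.

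Among the coding neighbours of divergent members, falls outnumbered rises. Of the 260 neighbours tested, 38 rose and 66 fell in T24, 36 and 57 in 5637, and 28 and 49 in TCC-SUP, with median log2 differences of -0.08, -0.12 and -0.09. Falls also outnumbered rises among the 299 tested genes nearest to distant members, of which 34 rose and 84 fell in T24, 37 and 80 in 5637, and 22 and 64 in TCC-SUP. Of the 136 tested neighbours of downstream members, 27 rose and 26 fell in T24, 24 and 26 in 5637, and 15 and 20 in TCC-SUP. For the 238 tested neighbours of the remaining near members the counts were 34 and 46, 40 and 45, and 20 and 50. Of all 14776 coding genes tested, 17.5% rose and 16.8% fell in T24, 17.6% and 17.0% in 5637, and 11.3% and 14.1% in TCC-SUP. Among the 54 divergent members that rose in T24, the neighbour rose for 7, fell for 12 and was not called for 35, and for the 81 in 5637 with a tested neighbour the counts were 13, 15 and 53. In TCC-SUP none of 21 neighbours rose and 5 fell. Falls thus outnumbered rises beside members that rose, as they did among all 260 neighbours. Across the 260 pairs, which share libraries and depth, Pearson's r of the log2 differences was 0.12 in T24, 0.15 in 5637 and 0.14 in TCC-SUP.

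**Figure D2:**
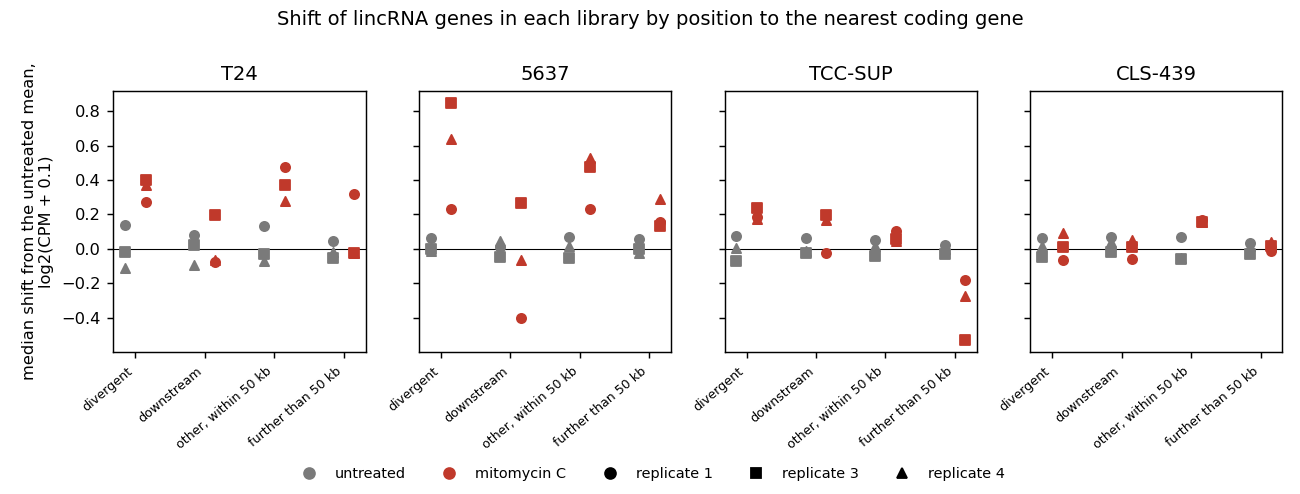
Median shift of lincRNA members from the untreated mean on log2(CPM + 0.1) in each library, grey untreated and red treated with a symbol per replicate, by line and by position to the nearest coding gene. Divergent members and those elsewhere within 50 kb are above 0 in all 9 treated libraries of T24, 5637 and TCC-SUP. Members further than 50 kb are below 0 in the 3 treated libraries of TCC-SUP.

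Base composition of the start regions differed along the same lines. A RefSeq promoter was found for 398 members, 129 of them matched through a newer symbol. For 267 the RefSeq start lay within 100 bases of the GENCODE start, and the other windows lie further from it. The median count of CG dinucleotides in 300 bases was 17 over the 398, with 30 for the 126 divergent ones and 6 for the 138 distant ones. Members that rose had medians of 25 in T24 (n = 65), 27 in 5637 (n = 85) and 23 in TCC-SUP (n = 33), and members that fell 11, 13 and 12 (n = 15, 16 and 34). The AP-1 motif TGANTCA was present on either strand in 24.6% of distant members' windows, 0.794% of divergent ones and 7.71% of all promoters. A match describes letters in this window and no bound factor.

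Among long members, calls of lower were most frequent in TCC-SUP. Of the 103 tested members spanning 100 kb or more, none rose and 31 fell in that line (30.1%, median log2 difference -0.73), whereas 4 rose and 4 fell in T24, 4 rose and 10 fell in 5637, and none was called in CLS-439. Protein-coding genes of that span were lower in 33.4% of cases in T24, 38.9% in 5637 and 44.3% in TCC-SUP. Of the 498 members under 5 kb, 76 rose and 31 fell in T24, 117 and 32 in 5637, and 44 and 14 in TCC-SUP, or 15.3% and 6.22%, 23.5% and 6.43%, and 8.84% and 2.81%. All genes of that span were higher and lower at 9.89% and 5.68%, 13.7% and 5.14%, and 6.79% and 2.37%, and coding genes at 19.4% and 6.47%, 25.2% and 7.07%, and 13.5% and 3.46%. Fewer long members could be followed in the other lines. A mean of 0.2 CPM or more was reached by 91 in TCC-SUP, 52 in 5637, 50 in T24 and 24 in CLS-439. The median shift of these long members in the treated TCC-SUP replicates 1, 3 and 4 was -0.43, -1.14 and -0.72, so all 3 lay below 0. It was also below 0 in treated 5637 (-0.13, -0.40 and -0.10) and treated CLS-439 (-0.11, -0.37 and -0.23). In treated T24 it was 0.25, -0.16 and 0.05. The count of 31 was 14 without untreated replicate 1, 13 without treated replicate 3 and 16 without treated replicate 4. In T24 the count of 4 was 2 without untreated replicate 1 or treated replicate 3, 1 without untreated replicate 4 and 7 without treated replicate 1, and the 10 in 5637 became 6 without treated replicate 3.

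**Figure D3:**
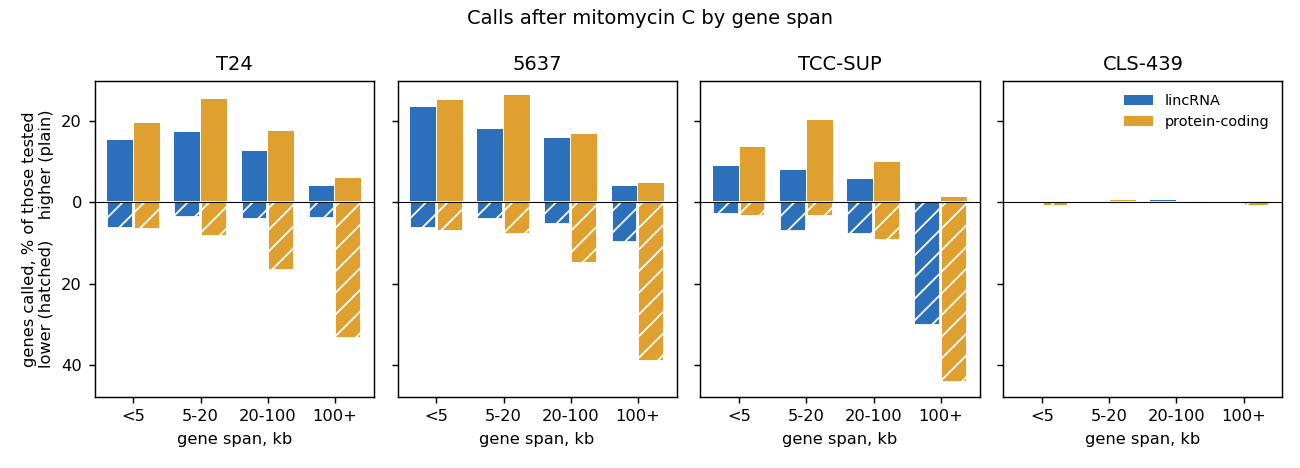
Percent of tested lincRNA members and protein-coding genes called higher (plain, upward) or lower (hatched, downward) after mitomycin C by genomic span of the gene in kb, in each line. In TCC-SUP 30.1% of members of 100 kb or more were lower and none was higher.

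LINC01411 (ENSG00000249306, chromosome 5, 174336295 to 174532457, plus strand, 11 exon blocks) is a long member 290691 bp from the nearest coding start. In 5637 it held 36.2, 30.04 and 29.6 CPM untreated and 10.4, 3.58 and 5.36 treated, a fall of 2.31 on the log2 scale (SE 0.32, edgeR adjusted p = 1.29e-05). In TCC-SUP the values were 5.70, 6.21 and 8.27 CPM against 1.92, 1.01 and 1.31, a fall of 2.26 (SE 0.36, edgeR adjusted p = 0.00018). Treated and untreated libraries did not overlap in either line, and T24 and CLS-439 held at most 0.137 CPM. LINC01239, spanning 178 kb on chromosome 9, held 2.92, 1.55 and 1.81 CPM in untreated TCC-SUP and 0.607, 0.211 and 0.204 after treatment (log2 -2.63, SE 0.42, edgeR adjusted p = 0.000351).

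Calls in the same direction in T24, 5637 and TCC-SUP were shared by 38 members that rose (3.58%, beside 4.09% of all genes) and 10 that fell (0.943%, beside 4.23%). Of the 38, 15 were divergent, and of the 10, none was. The first count was 24 without untreated replicate 4 of 5637, and in TCC-SUP it was 20, 24 and 21 without untreated replicate 1, 3 or 4 and 20 without treated replicate 3. The second was 16 without treated replicate 1 of T24, and 5 and 6 without untreated or treated replicate 3 of TCC-SUP. In CLS-439, where none of these 48 was called, 21 of the 38 had a log2 difference above 0 and 12 below, and 5 of the 10 had one above 0 and 2 below.

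LINC01963 (ENSG00000260804, chromosome 2, 216217045 to 216220192, plus strand, 1 exon) was lower after MMC in all 3 lines. Untreated T24 held 7.32, 7.59 and 7.36 CPM and treated T24 2.17, 1.77 and 0.997. In 5637 the values were 21.3, 20.5 and 19.2 CPM against 4.96, 3.20 and 3.24, and in TCC-SUP 12.8, 14.8 and 12.1 against 5.05, 2.79 and 4.78. Its log2 differences were -2.17 (SE 0.25, edgeR adjusted p = 7.51e-07), -2.42 (SE 0.23, 4.71e-08) and -1.66 (SE 0.23, 3.08e-05). In CLS-439 the level was highest of the lines, with 32.5, 31.2 and 31.1 CPM untreated and 28.6, 21.8 and 20.7 treated. Those groups did not overlap either, but the difference of -0.42 (SE 0.21) was not called (edgeR adjusted p = 0.677). The response in CLS-439 differed from that in T24 by 1.76 (SE 0.33, edgeR adjusted p = 0.00128), from 5637 by 2.0 (SE 0.31, 0.000187) and from TCC-SUP by 1.24 (SE 0.31, 0.0306).

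AL136985.3 (chromosome 1, 58715609 to 58771295, plus strand) also fell in the 3 lines, from 4.30 ± 1.12 to 0.946 ± 0.774 CPM in T24, 1.139 ± 0.256 to 0.125 ± 0.135 in 5637 and 1.30 ± 0.721 to 0.173 ± 0.0124 in TCC-SUP (mean ± SD, n = 3 each). The log2 differences were -2.20, -3.14 and -2.87 (SE 0.45, 0.66 and 0.60), with edgeR adjusted p of 0.000912, 0.00111 and 0.00213, and no read was counted in CLS-439. AC006058.1, a single-exon gene on chromosome 3 (44117299 to 44122365), held 47.0, 56.8 and 58.7 CPM in untreated T24 and 14.5, 13.9 and 12.7 after MMC, a log2 difference of -1.99 (SE 0.28, edgeR adjusted p = 1.53e-05). In 5637 it went from 0.407, 0.241 and 0.184 CPM to 0 in all 3 treated libraries, at least 5.89-fold lower against a floor of 3 reads over the group. In TCC-SUP the groups overlapped, and its call (log2 -1.33, edgeR adjusted p = 0.00754) was lost without untreated replicate 3 (-0.80, 0.103) or treated replicate 3 (-1.07, 0.0633).

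Of the shared rises, AL139384.2 (chromosome 13, 112602828 to 112606417, minus strand, 1 exon) went from 0.203, 0.145 and 0.046 CPM to 1.45, 3.97 and 2.73 in 5637, a log2 difference of 4.34 (SE 0.55, edgeR adjusted p = 2.88e-06). It rose by 2.36 (SE 0.47, 0.000479) in T24 and by 2.22 (SE 0.51, 0.00306) in TCC-SUP by the same test, with no overlap of libraries in any of the 3 lines. CLS-439 had 0.561, 0.105 and 0.155 CPM untreated and 0, 0.0974 and 0.0892 treated, and its response differed from that of 5637 by 6.34 (SE 1.01, edgeR adjusted p = 0.000265). LINC02321, the gene with the CG-rich start shown above, held 0.232, 0.137 and 0.226 CPM in untreated T24 and 1.25, 2.68 and 3.04 after MMC (log2 3.50, SE 0.44, edgeR adjusted p = 5.88e-06). In 5637 it held 0.203, 0.0483 and 0.046 CPM against 1.68, 1.45 and 1.31 (log2 3.86, SE 0.53, edgeR adjusted p = 1.41e-05), and none of its reads was counted in CLS-439. Its TCC-SUP call (log2 1.66, edgeR adjusted p = 0.0214) was lost without untreated replicate 1 (1.42, 0.106), untreated replicate 3 (1.47, 0.0924) or treated replicate 3 (1.44, 0.115).

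A response that differed among the 4 lines was found for 67 members by a test of equal response with edgeR (6.32%, beside 16% of all genes and 20.5% of coding genes), and 187 had an unadjusted p under 0.05. The count was 111 without treated replicate 1 of 5637. EPB41L4A-AS1 (chromosome 5, 112160526 to 112164276), a host of a small nucleolar RNA, gave the smallest p. It held 9.88, 10.5 and 12.3 CPM in untreated T24 and 34.9, 27.4 and 28.4 after MMC, a rise of 1.47 (SE 0.17, edgeR adjusted p = 6.35e-07). In 5637 the libraries ranged from 12.7 to 15.9 CPM untreated and 11.9 to 16.9 treated, and in TCC-SUP from 12.4 to 14.1 and 11.4 to 14.4, so both overlapped. The T24 response exceeded that of 5637 by 1.46 (SE 0.23, edgeR adjusted p = 0.000624), of TCC-SUP by 1.54 (SE 0.23, 0.000252) and of CLS-439 by 1.39 (SE 0.26, 0.00123). Of its 3344 exonic bases, 1659 overlap another gene.

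FLJ42351, divergent from the phosphate transporter gene SLC20A1, held 2.34, 2.03 and 1.47 CPM in untreated 5637 and 10.01, 12.5 and 10.7 after MMC, a rise of 2.51 (SE 0.24, edgeR adjusted p = 4.62e-08). It rose by 1.00 (SE 0.25, 0.00394) in T24 by the same test, and the 5637 response was larger than those of T24 by 1.51 (SE 0.34, edgeR adjusted p = 0.013), TCC-SUP by 2.18 (SE 0.33, 0.000361) and CLS-439 by 2.10 (SE 0.35, 0.000393). SLC20A1 was not called in any line. LINC00944 moved in opposite directions: in T24 from 0.310, 0.183 and 0.151 CPM to 0.433, 1.18 and 0.748 (log2 1.86, SE 0.39, edgeR adjusted p = 0.00118), and in 5637 from 1.32, 1.16 and 1.06 CPM to 0.562, 0.341 and 0.404 (log2 -1.43, SE 0.34, edgeR adjusted p = 0.00323). The responses of T24 and 5637 differed by 3.29 (SE 0.52, edgeR adjusted p = 0.00091). TCC-SUP held 7.12 to 8.98 CPM untreated and 9.07 to 9.30 treated and was not called.

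AL161431.1 (chromosome 13, 109269634 to 109278512), among the 8 most abundant members, fell in T24 from 75.5, 67.9 and 62.3 CPM to 33.0, 30.8 and 20.1 (log2 -1.29, SE 0.17, edgeR adjusted p = 3.28e-06). In 5637, with 122 to 149 CPM untreated and 104 to 122 treated, and in TCC-SUP it was not called, and the T24 response differed from each by 1.07 (SE 0.23, edgeR adjusted p = 0.00822) and 0.99 (SE 0.23, 0.0145) in size. LINC01355, at 3.41, 2.51 and 2.68 CPM in untreated T24 and 0.595, 0.591 and 0.698 treated, fell by 2.18 (SE 0.35, edgeR adjusted p = 4.93e-05). In CLS-439 it held 2.76, 2.68 and 3.09 CPM against 4.12, 2.92 and 3.43 and was not called, and the 2 responses differed by 2.47 (SE 0.46, edgeR adjusted p = 0.00129). CRNDE, divergent from the homeobox gene IRX5, rose in 5637 alone among the calls, from 0.102, 0.0966 and 0 CPM to 0.140, 0.597 and 0.607 (log2 2.69, SE 0.66, edgeR adjusted p = 0.00293). In the other lines its untreated level was 5.36 to 12.3 CPM and no call was made.

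**Figure D4:**
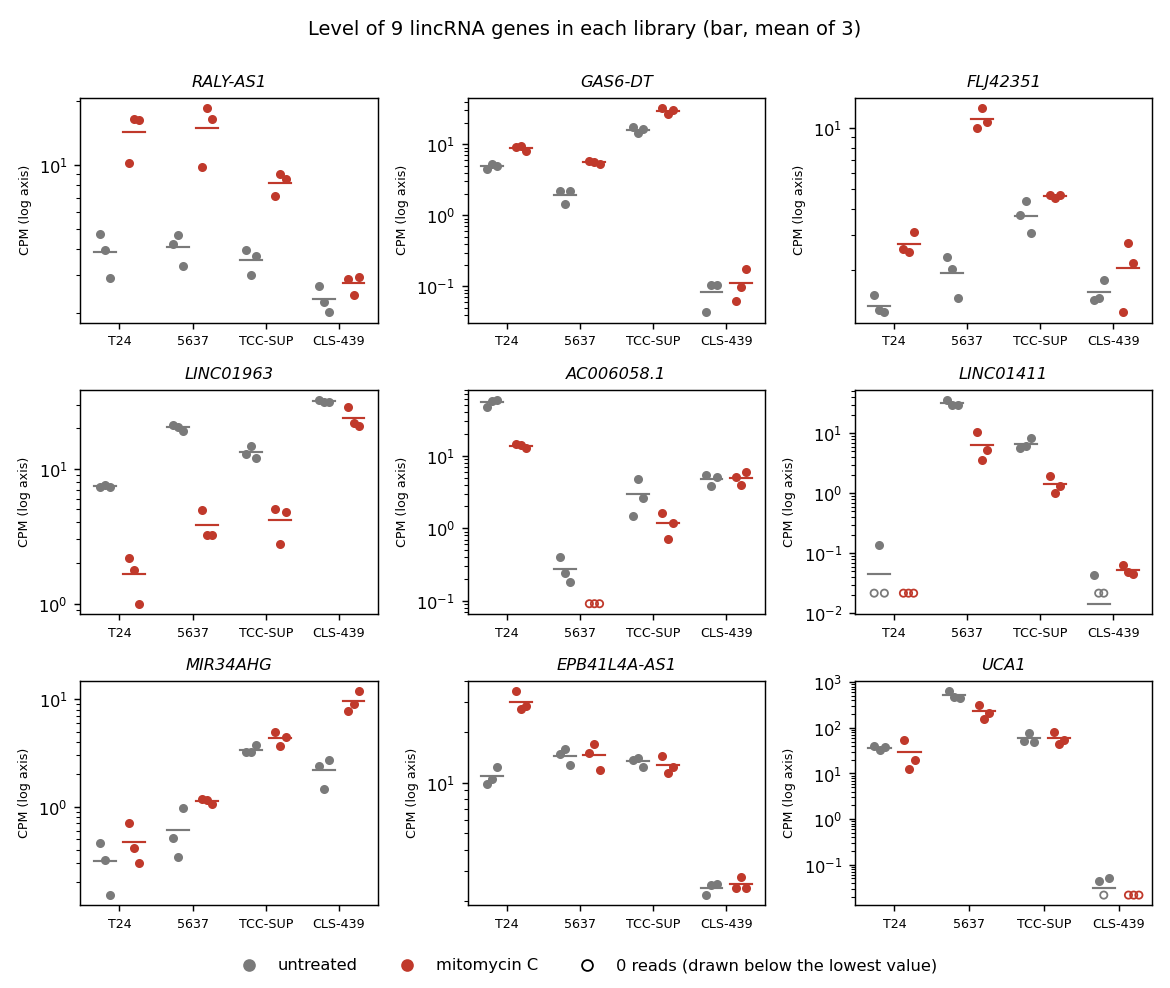
CPM of 9 lincRNA members on log axes, with each point a library, bars at group means, and open circles for libraries with 0 reads. LINC01963 is lower in all treated libraries of T24, 5637 and TCC-SUP, EPB41L4A-AS1 is higher after treatment in T24 alone among the calls, and MIR34AHG is higher in treated CLS-439.

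Of 15 listed symbols of p53-linked genes, older symbols included, 6 named members: MIR34AHG, NEAT1, NORAD, PVT1, TP53TG1 and LINC-PINT. None was called in T24, 1 fell in 5637, 1 fell in TCC-SUP and 1 rose in CLS-439, where 13.6% and 11.1% of all genes fell in 5637 and TCC-SUP and 0.298% rose in CLS-439, with list medians of 0.06, -0.05, -0.14 and 0.02 where all genes had 0. The fall in 5637 was that of PVT1, from 17.1, 18.5 and 15.7 CPM to 12.8, 6.53 and 8.69, and its call (log2 -0.87, SE 0.29, edgeR adjusted p = 0.0242) was lost without untreated replicate 1 or 3 or treated replicate 3 or 4, with adjusted p from 0.0504 to 0.139. The rise in CLS-439 was that of MIR34AHG (ENSG00000228526, chromosome 1, 9148011 to 9198906, minus strand, 4 exons), the host of miR-34a, and it was the single member called higher in that line. Untreated CLS-439 libraries held 2.42, 1.47 and 2.73 CPM and treated ones 7.75, 8.96 and 11.9, with no overlap. The log2 difference was 2.11 (SE 0.29, edgeR adjusted p = 0.000352). In TCC-SUP the values were 3.19, 3.20 and 3.71 CPM untreated and 5.00, 3.67 and 4.41 treated, which overlap (log2 0.37, SE 0.28, edgeR adjusted p = 0.397). The response of CLS-439 exceeded that of TCC-SUP by 1.74 (SE 0.41, edgeR adjusted p = 0.0248), while its excess over T24 (1.53, SE 0.56, 0.0816) and 5637 (1.22, SE 0.48, 0.116) did not pass. T24 and 5637 had less of it, 0.151 to 0.465 and 0.338 to 0.965 CPM untreated, and in 5637 all treated libraries, at 1.06 to 1.17 CPM, lay above the untreated ones (log2 0.89, SE 0.37, edgeR adjusted p = 0.0765).

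Among the 8 listed nuclear and general regulators that were members, T24 had 1 rise and 2 falls, 5637 1 and 2, and TCC-SUP 0 and 3. Among all genes 15.2% rose and 13.4% fell in T24, 15.9% and 13.6% in 5637, and 9.57% and 11.1% in TCC-SUP. The rises were EPB41L4A-AS1 and CRNDE, described above, and the falls were MALAT1, NEAT1, FTX and JPX. NEAT1 differed in level between lines, with untreated means of 732 ± 32.9 CPM in CLS-439, 296 ± 37.0 in TCC-SUP, 229 ± 45.5 in T24 and 113 ± 10.5 in 5637 (mean ± SD, n = 3). T24 and TCC-SUP overlapped in their libraries, and the others did not. It fell in TCC-SUP from 330, 257 and 301 CPM to 212, 103 and 108 (log2 -1.07, SE 0.26, edgeR adjusted p = 0.00528). MALAT1, a nuclear speckle RNA, held 159, 125 and 140 CPM in untreated T24 and 89.97, 102 and 80.5 after MMC, and its call (log2 -0.64, SE 0.19, edgeR adjusted p = 0.0148) was lost without untreated replicate 1 (-0.57, 0.057) or treated replicate 4 (-0.56, 0.0725). NORAD held 219 to 530 CPM in T24, 223 to 381 in 5637, 282 to 420 in TCC-SUP and 32.8 to 42.9 in CLS-439, and was not called in any line.

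FTX and JPX, neighbours in the X-inactivation centre that share many exonic bases and are therefore uncertain, were lower in several lines. FTX went from 10.1, 8.68 and 8.90 to 4.93, 5.78 and 3.49 CPM in T24 (log2 -0.96, SE 0.23, edgeR adjusted p = 0.00297) and from 11.3, 18.3 and 17.8 to 5.99, 9.73 and 10.6 in 5637 (log2 -0.85, SE 0.23, edgeR adjusted p = 0.0056). Its TCC-SUP call (log2 -0.67, edgeR adjusted p = 0.0357) was lost without untreated replicate 1 or 3 or treated replicate 3 or 4, with adjusted p from 0.0845 to 0.135. JPX fell by 0.65 (SE 0.17, edgeR adjusted p = 0.00576) in 5637, from 22.6, 26.6 and 21.7 CPM to 13.9, 15.1 and 15.97. In TCC-SUP JPX went from 34.0, 34.1 and 32.4 CPM to 21.5, 18.6 and 24, and its call (log2 -0.65, edgeR adjusted p = 0.00868) was lost without treated replicate 3 (-0.56, 0.0661).

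Of 29 listed symbols of cancer-linked genes 12 named members, of which 1 rose in T24, 2 rose and 3 fell in 5637, 2 fell in TCC-SUP and none was called in CLS-439. The shares of all genes called higher and lower in these lines were 15.2% and 13.4%, 15.9% and 13.6%, 9.57% and 11.1%, and 0.298% and 0.322%. LINC00973 rose in T24 from 3.56, 2.38 and 2.11 CPM to 17.7, 7.91 and 11.1 (log2 2.18, SE 0.43, edgeR adjusted p = 0.000495) and in 5637 from 4.02, 3.43 and 4.14 CPM to 14.5, 9.0 and 11.8 (log2 1.6, SE 0.42, edgeR adjusted p = 0.00548), with no overlap in either. UCA1, first described in urothelial carcinoma, was far higher in 5637 than elsewhere, with 639, 465 and 460 CPM untreated against 33.2 to 39.1 in T24 and 50.3 to 75.8 in TCC-SUP, and 1 read in each of 2 untreated CLS-439 libraries. It held 323, 160 and 207 CPM in treated 5637, and that call (log2 -1.18, SE 0.37, edgeR adjusted p = 0.0191) was lost without untreated replicate 1 (-1.02, 0.0774), treated replicate 3 (-0.98, 0.0993) or treated replicate 4 (-1.11, 0.0753). SCHLAP1, a long gene known from prostate cancer, fell in TCC-SUP from 3.15, 4.17 and 4.18 CPM to 1.45, 0.717 and 0.694 (log2 -2.01, SE 0.36, edgeR adjusted p = 0.000557).

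Of 21 microRNA hosts tested, T24 had 2 rises and 4 falls, 5637 had 1 rise and 2 falls, TCC-SUP had 1 rise and 6 falls, and CLS-439 had 1 rise, with medians between -0.10 and 0. The shares of all genes were, in the same order, 15.2% and 13.4%, 15.9% and 13.6%, 9.57% and 11.1%, and 0.298% and 0.322%. MIR193BHG, which carries miR-193b and miR-365a, fell in TCC-SUP from 11.6, 12.2 and 9.89 CPM to 4.39, 4.26 and 4.0 (log2 -1.41, SE 0.22, edgeR adjusted p = 0.000127). In CLS-439 all treated libraries, at 3.85 to 5.75 CPM, lay below the untreated ones at 6.90 to 7.50, but the difference of -0.60 was not called (edgeR adjusted p = 0.397). MIR222HG, host of miR-221 and miR-222, fell in T24 from 35.1, 25.1 and 28.3 CPM to 10.1, 9.87 and 10.6 (log2 -1.54, SE 0.25, edgeR adjusted p = 5.73e-05), and that response differed from those of TCC-SUP by 1.51 (SE 0.35, edgeR adjusted p = 0.0145) and CLS-439 by 1.63 (SE 0.35, 0.00423) in size. MIR503HG fell in TCC-SUP from 43.0, 44.9 and 53.4 CPM to 30.6, 14.6 and 18.3 (log2 -1.15, SE 0.26, edgeR adjusted p = 0.00297), and its response there differed from that of 5637 by 2.04 (SE 0.44, edgeR adjusted p = 0.00944). In 5637, where MIR503HG held 1.01 to 1.29 CPM untreated and 1.31 to 2.68 treated, it was not called.

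MIR210HG, whose microRNA is a known hypoxia target, held 16.9, 9.55 and 5.58 CPM in untreated T24 and 5.03, 3.73 and 1.80 treated, so the groups did not overlap although the untreated libraries themselves differed widely. Its T24 call (log2 -1.6, SE 0.45, edgeR adjusted p = 0.00934) was lost without untreated replicate 1 (-1.13, 0.0831) or treated replicate 4 (-1.29, 0.0621). Of 11 listed symbols of inflammation-linked genes 6 named members, and 2 of them fell in T24, where 13.4% of all genes did: MIR222HG and LINC00346, the second from 24.2, 23.2 and 22.1 CPM to 15.0, 8.28 and 11.1 (log2 -1.02, SE 0.21, edgeR adjusted p = 0.000759). MIR22HG, among the most abundant members at 16.6 to 46.4 CPM in every library, was not called in any line.

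AC027307.3, downstream of the ribosomal protein gene RPS15 on chromosome 19, fell in 5637 from 1.37, 1.64 and 1.43 CPM to 0.0936, 0.299 and 0.404 (log2 -2.46, SE 0.38, edgeR adjusted p = 3.77e-05). In T24 it held 2.01, 2.47 and 2.11 CPM untreated and 1.3, 1.32 and 0.848 treated, and that call (log2 -0.92, edgeR adjusted p = 0.0239) was lost without untreated replicate 3 (-0.85, 0.0766) or treated replicate 4 (-0.74, 0.125).

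The single member lower in CLS-439 was AL021807.1, downstream of a histone H2B gene on chromosome 6, with 0.820, 1.31 and 1.18 CPM untreated and 0.312, 0.390 and 0.357 treated (log2 -1.61, SE 0.35, edgeR adjusted p = 0.0237). That call was lost without any of 5 of the 6 CLS-439 libraries, with adjusted p from 0.0798 to 0.153, and with the replicate block (0.057). AC015819.1, chosen after its values were seen, was the 1 member called in all of T24, 5637 and TCC-SUP with unlike directions. It rose in 5637 from 0.203, 0.338 and 0.184 CPM to 0.889, 0.768 and 1.06 (log2 1.88, SE 0.40, edgeR adjusted p = 0.00169) and in TCC-SUP from 0 in all 3 libraries to 0.140, 0.0844 and 0.122 CPM, at least 2.44-fold higher. In T24 it held 0.969, 0.731 and 0.717 CPM untreated and 0.541, 0.227 and 0.349 treated, and the T24 call (log2 -1.13, edgeR adjusted p = 0.0325) was lost without any of 5 of the 6 T24 libraries, with adjusted p from 0.0508 to 0.149.

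The untreated lines were compared without a test, since the rule chose members on these same levels. A member is called enriched in a line that held 90% or more of the sum of the 4 untreated mean CPM values. By this measure 225 members (20.6%) were enriched: 120 in TCC-SUP, 53 in CLS-439, 33 in 5637 and 19 in T24. Of the coding genes under the same count rule, 1286 (8.71%) were enriched: 411 in TCC-SUP, 624 in CLS-439, 206 in 5637 and 45 in T24. The difference in share between members and coding genes lay among abundant genes. Where the highest group mean was 10 CPM or more, 20% of members and 4.54% of coding genes were enriched. Under 1 CPM it was 18.8% and 26%, from 1 to 3 CPM 22.2% and 25.2%, and from 3 to 10 CPM 21.4% and 20%.

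**Figure D5:**
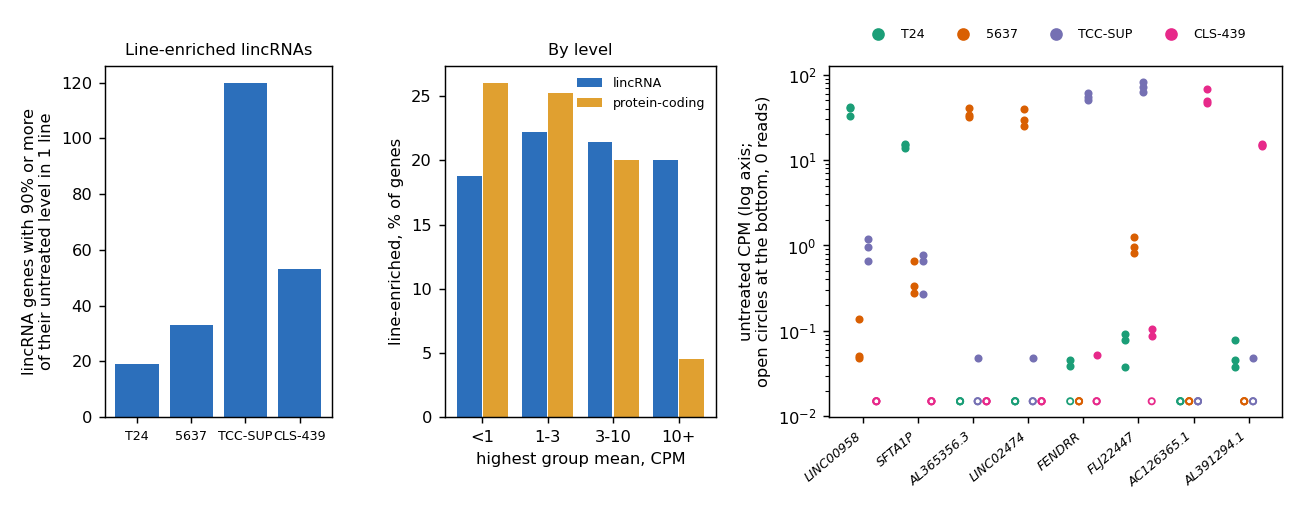
Left, number of members enriched in each untreated line; middle, percent of lincRNA members and protein-coding genes enriched in a line, by the highest group mean CPM; right, untreated CPM of 8 enriched members in every library on a log axis. TCC-SUP has 120 enriched members, and at 10 CPM or more 20% of members and 4.54% of coding genes are enriched.

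TCC-SUP also had the widest repertoire of members. All 3 untreated libraries held 10 or more reads for 618 members in TCC-SUP, 417 in T24, 397 in 5637 and 237 in CLS-439. Coding genes under the same count rule did not follow this order, with 84.9%, 80.5%, 82.8% and 85.1% detected in this way. No read was counted in untreated cells for 71, 165, 185 and 335 members in TCC-SUP, T24, 5637 and CLS-439. With 10 or more reads in each untreated library of a line and none in the other lines, there were 46 members in TCC-SUP, 12 in CLS-439, 6 in 5637 and 3 in T24. The shares of reads from mitochondrial genes and pseudogenes given above set CLS-439 apart from the other lines in the same libraries. Its untreated libraries were also the shallowest, at 17103409 to 20863429 counted reads against 21920170 to 28821665 in the other lines. The part of these shares and of depth in its low count was not tested.

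TCC-SUP was marked by FENDRR (chromosome 16, 86474529 to 86509099, minus strand), divergent from FOXF1, a transcription factor gene of mesenchyme. It held 60.3, 50.6 and 55.4 CPM untreated, 99.9% of the sum over lines, and fell to 38.8, 15.1 and 22.6 after MMC (log2 -1.12, SE 0.28, edgeR adjusted p = 0.00643), while FOXF1 was not called. FLJ22447 held 62.2, 82.3 and 71.2 CPM there (98.4%) and 41.3, 20.4 and 28.8 treated (log2 -1.25, SE 0.29, edgeR adjusted p = 0.00412). LINC01133 at 48.8, 29.6 and 40.6 CPM, MIAT at 41.7, 24.2 and 30.7 and IGFL2-AS1 at 38.9, 19.3 and 28.3 were the next highest, and none of these 3 was called after MMC in TCC-SUP. The summed mesenchymal markers given above were highest in the same line, mostly through COL1A1 and COL1A2, although VIM was lowest there. The sum was lower in the treated libraries of TCC-SUP, at 3252 to 5036 CPM. The part of these markers in the falls of FENDRR and FLJ22447 was not tested.

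T24 was marked by LINC00958, another RNA known from bladder cancer, at 33.1, 41.4 and 40.4 CPM (97.4%), which rose after MMC to 72.3, 61.1 and 64.6 (log2 0.79, SE 0.19, edgeR adjusted p = 0.00274). MIR137HG at 17.98, 17.8 and 18.8 CPM (91.0%) and SFTA1P at 15.5, 14.9 and 13.7 (93.6%) followed. SFTA1P, scarce in 5637 at 0.661, 0.338 and 0.276 CPM, rose there to 2.67, 0.725 and 1.92 (log2 2.05, SE 0.54, edgeR adjusted p = 0.00629). LINC01305 was counted in T24 only, at 1.94, 2.19 and 1.32 CPM untreated and 4.06, 5.41 and 4.14 treated (log2 1.32, SE 0.30, edgeR adjusted p = 0.00558).

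In 5637 the leading enriched members were AL365356.3 at 40.8, 33.7 and 31.9 CPM and LINC02474 at 39.2, 25.02 and 29.7, and in other lines each had at most 1 read in a library. Both fell after MMC: AL365356.3 to 9.13, 3.75 and 4.35 CPM (log2 -2.63, SE 0.32, edgeR adjusted p = 2.32e-05) and LINC02474 to 17.8, 13.8 and 13.8 (log2 -1.05, SE 0.24, edgeR adjusted p = 0.00363). MIR3142HG, the host of miR-146a, at 11.4, 10.8 and 12.9 CPM (95.6%), was not called. CLS-439 was marked by AC126365.1 at 67.6, 49.7 and 47.2 CPM, with no read in any other library, by AL391294.1 at 15.0, 15.2 and 14.7 and by AL590434.1 at 14.5, 13.4 and 13.1. None of the 5 most abundant members enriched in that line was called there after MMC.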

How the data were processed

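RNA sequencing libraries of 24 cultures, 3 for each of 8 groups of line and treatment, were analysed from the table of raw read counts per gene that the authors deposited. Per the submitters' processing notes, STAR 2.5.3a, featureCounts 1.6.2 and the genome GRCh38 were used, and which annotation, strand option and treatment of multiply placed reads went into the counts is not given in the sources used here. Per the labels' protocols the libraries were made with a stranded kit from polyadenylated RNA. Gene types, positions and exons were taken from GENCODE 29 by gene identifier, and rows it does not hold took 0.00717% of reads.

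Counts were scaled with TMM and tested with edgeR 4.0.16 (limma 3.58.1, R 4.3.3) in 1 quasi-likelihood fit of 24 libraries by group, after edgeR's count filter, with 16 residual degrees of freedom and Benjamini-Hochberg adjustment over 20820 genes. CPM are TMM-scaled. Positions, promoters and figures used bedtools 2.31.1, Python 3.11.15 and matplotlib 3.10.9, and promoter and microRNA sequences are RefSeq's for GRCh38.p14. The fit was tested on simulated data. No 2 libraries of a group agreed within sampling noise (lowest chi-square per gene 4.11).

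Members and lists were chosen with earlier results of these data known. Named genes were, in each line, the 5 largest called rises and falls without overlap of libraries and with 1 CPM or more in the higher group, up to 8 members called each way in T24, 5637 and TCC-SUP, the 5 smallest p-values for a differing response, the 5 enriched members with the highest CPM per line, the 8 highest mean CPM and the members of the lists; genes outside this rule are said to be chosen after their values were seen. Only those that the results turn on are described, and other members that the rule names are not reported here.

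Replicate numbers come from the labels. Within a line, the deviations from their groups of a treated and an untreated library that bear the same number were correlated. The correlations were 0.277, 0.133 and 0.389 in 5637 and 0.423, 0.282 and 0.143 in CLS-439 (replicates 1, 3 and 4). In T24 they were 0.386, -0.164 and 0.428 and in TCC-SUP 0.127, -0.0150 and -0.171. The main fit used no pairing in any line. The replicate block, an alternative, was fitted in all 4 lines. Alternatives were DESeq2 1.42.0, RLE scaling, no filter, fits without CLS-439 or of a single line, a replicate block, other member rules and leaving out replicates.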

Additional observations from a re-analysis of the deposited data

Results flagged for a closer look

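Among the members named, 18 had responses to MMC that differed among the 4 lines in edgeR's test of equal response, and each is given here with its adjusted p over all genes tested. The smallest were those of EPB41L4A-AS1 (0.000145), which rose in T24 only among the calls, FLJ42351 (0.000206), with its largest rise in 5637, and LINC01963 (0.00035), which fell in T24, 5637 and TCC-SUP and was not called in CLS-439. AL139384.2 (0.00129), LINC00944 (0.00186), AC015819.1 (0.00225), AC006058.1 (0.00253), LINC01355 (0.00443) and AL161431.1 (0.0052) followed. LINC00944 rose in T24 and fell in 5637, and the difference of 3.29 between these responses was itself tested (SE 0.52, edgeR adjusted p = 0.00091).

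The values were 0.00683 for MIR222HG, which fell in T24, and 0.00717 for RALY-AS1, which rose in T24, 5637 and TCC-SUP. They were 0.0135 for CRNDE, 0.0138 for MIR503HG and 0.0193 for MIR34AHG, the single member called higher in CLS-439. AL590434.1 (0.0265), AC027307.3 (0.0286), which fell in 5637, AC044802.1 (0.0313) and AL021807.1 (0.039) were nearest to the threshold.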

How the results depend on the processing

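Of 139 called responses of named members, 90 were called in every fit that left out a single library, but leaving out replicate 1, 3 or 4 of all groups lost 7, 69 and 100 of them; 136 kept the call with the replicate block, 138 with RLE scaling and 124 of 133 with an adjusted p in DESeq2, and none changed sign under any alternative. The alternatives for divergent and long members and for calls shared by 3 lines, and the rule without exon overlap, were chosen after seeing the data. With the libraries of a line alone, T24 had 87 members higher and 35 lower and CLS-439 5 and 2, and divergent members higher numbered 33 in T24 and 48 in 5637. Without the filter, 4 were higher in CLS-439, 7 of 100 kb or more were lower in T24 and 104 responses differed among lines. DESeq2 called 2 long members lower in T24 and 20 in TCC-SUP. Without CLS-439, 21 responses differed among the other 3 lines. Without members that share exonic bases, 0 were higher in CLS-439, and with the block for the pairing by replicate number 0 were lower there. Enriched members numbered 12 in T24 and 21 in 5637 at a 95% share, 53 in 5637 at 80%, and 11 in T24, 76 in TCC-SUP and 32 in CLS-439 with 10 reads required in 6 libraries. Leaving out a library, or a replicate number in all groups, gave these ranges of calls: higher 28 to 165 and lower 10 to 75 in T24, 49 to 228 and 16 to 71 in 5637, 1 to 109 and 2 to 135 in TCC-SUP, and 0 to 1 each in CLS-439; divergent members higher 10 to 65, 19 to 101 and 0 to 33, and long members lower 0 to 7, 1 to 12 and 0 to 47, in T24, 5637 and TCC-SUP; differing responses 0 to 111; shared rises 0 to 50 and shared falls 1 to 16. The lowest came from fits without replicate 3 or 4 in all groups. The fit without replicate 1, which has as few libraries, gave 165, 223 and 109 members higher in T24, 5637 and TCC-SUP; the cause was not tested. Treated replicate 1 of T24 stood apart, with a chi-square per gene of 129 and 72.6 against replicates 3 and 4, which had 21.4 between them. Most members have few reads, so an uncalled member may differ by less than these depths can show.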
